A study of Mus musculus with 6 samples.

Results

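Glutathione is the main small thiol of animal cells, and 44 protein-coding genes of its synthesis, recycling, breakdown and use were followed in irradiated and untreated mouse parotid glands. They are the genes of the 6 deposited tables whose symbol begins with Gsta, Gstm, Gsto, Gstp, Gstt, Gstz, Mgst or Gpx and a digit, together with Gstk1, Gclc, Gclm, Gss, Gsr, Ggt1, Ggt5, Ggt6, Ggt7, Ggct, Oplah and Slc7a11, and they are 44 of 52636 genes listed. The rule used names alone and no measured value. Of the 44 genes, 25 encode transferases, 8 peroxidases, 6 breakdown enzymes, 4 synthesis or cystine supply proteins and 1 the reductase.

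RNA was taken from the parotid gland, the saliva gland in front of the ear, of FVB mice (an inbred strain) labelled as 28 days old. The irradiated group held 3 samples from mice that had received a single radiation dose of 5 Gy, and the untreated group held 3 samples. The sentence naming the dose accompanies all 6 samples, and it was read as describing the irradiated ones. How long after the dose the glands were taken is not given in the sources used here, where the tables of the irradiated samples carry a mark, D5, with no stated meaning, nor is it given whether the samples are of different mice, so the p-values measure only the spread between these samples, which may be technical. Gland tissue was not sorted into cells, so each value averages over all cell types, and fewer cells of a type and less RNA per cell cannot be told apart.

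The cell builds glutathione in a pair of steps. Gclc, the catalytic subunit of glutamate-cysteine ligase, and its modifier Gclm join glutamate and cysteine, and Gss, glutathione synthetase, adds glycine. Slc7a11 is the transporter subunit that imports cystine. Glutathione peroxidases spend glutathione to reduce peroxides, Gsr restores the oxidized form, and glutathione S-transferases couple it to reactive compounds. Radiation forms reactive oxygen species in water, which is why this system is commonly followed in irradiated tissue. Many of its genes are known targets of the transcription factor Nrf2, encoded by Nfe2l2.

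Gene counts ranged from 7108359 in irradiated replicate 2 to 15036193 in untreated replicate 3. Irradiated replicate 2 also stood apart in the deposited summary rows. Unaligned reads made up 10.01% of it, against 3.75% to 4.33% of each of the 5 others, and it had 184 reads set aside for low alignment quality, against 342749 to 491591. Its values are given separately wherever a result rests on them.

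No gene of the system passed the threshold between irradiated and untreated glands. Of the 44 genes, 29 had enough counts to be tested, and the quasi-likelihood test of edgeR, adjusted by Benjamini-Hochberg over all 12885 tested genes, called 0 higher and 0 lower at an adjusted p under 0.05. DESeq2 and limma-voom also called 0. Among all genes tested, 0.652% were called higher and 0.349% lower in irradiated glands, 84 and 45 genes, and with libraries scaled by their totals alone 260 and 22. At an unadjusted p under 0.05, 0 of the 29 were higher and 9 were lower, which is 31.0% of the 29, against 7.51% of all genes higher and 7.46% lower. The 9 were Gpx4 and 8 transferases, Gstk1, Gstt2, Gstt3, Mgst1, Gsta3, Gstm5, Gsto1 and Mgst3.

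The median log2 fold change of the 29 genes, irradiated over untreated, was -0.19, against -0.01 for all genes tested, and 22 of the 29 were negative, against 50.9% of all genes. The 3 irradiated libraries lay wholly below the 3 untreated ones for 9 of the 29 genes and wholly above for 1, Gclc, against 10.6% of all genes tested below and 10.6% above. These 9 were Gpx1, Gpx4, Gss, Gstk1, Gstm5, Gstt2, Gstt3, Mgst1 and Mgst3. Without irradiated replicate 1 the median was -0.11 and 4 genes, in place of 9, were lower at an unadjusted p under 0.05, and without untreated replicate 2 or untreated replicate 3 it was 5 genes. The scaling of libraries also bore on these counts. With library totals alone, in place of TMM, 1 gene was higher and 1 lower at that level, 15 of the 29 were negative, and 2 lay wholly above and 5 wholly below the untreated libraries. That scaling moved the median of all genes to 0.14, and 22 of the 29 genes stayed below the median of all genes, as with TMM.

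Many of these genes are short, and short transcripts stood lower in irradiated glands across the data. The longest transcript of a tested glutathione gene had a median length of 1594 bases, against 3331 for all genes tested, and 16 of the 29 were in the shortest quintile of genes. The median log2 fold change of all genes in that quintile was -0.17, and 15.2% of them were lower at an unadjusted p under 0.05, against 0.10 and 2.84% in the longest quintile. Of the 16 glutathione genes in the shortest quintile, 6 were lower at that level. Wholly below the untreated libraries lay 20.8% of all genes in the shortest quintile and 4.23% of those in the longest. With offsets for transcript length and GC content the median of the 29 was -0.14, 4 of them were lower at an unadjusted p under 0.05, and 19 were negative. The part of transcript length in the differences was not tested beyond that comparison.

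**Figure D1:**
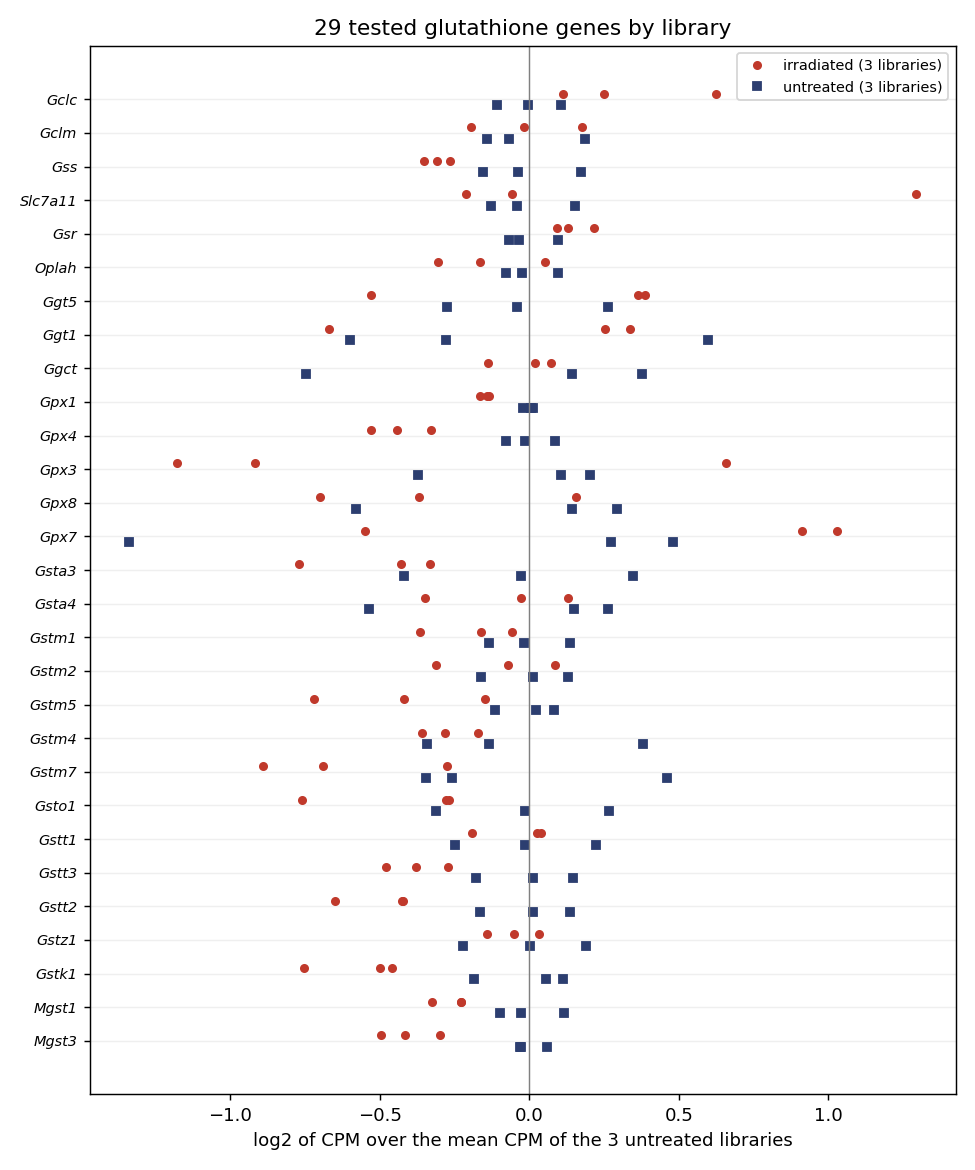
CPM of the 29 tested genes in each library, as log2 of the value over the mean of the 3 untreated libraries, with irradiated libraries as red circles and untreated libraries as blue squares, in order of role from synthesis at the top to membrane transferases at the bottom. The circles lie wholly left of the squares for 9 genes and wholly right of them for 1, Gclc, and the wide spreads belong to Gpx7, Gpx3 and Slc7a11.

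Markers of other cells in the gland were also followed. All 8 fibroblast markers had negative log2 fold changes (median -0.38), as had all 8 skeletal muscle markers (median -0.71) and 7 of 8 fat cell markers (median -0.29). Summed fibroblast markers stood at 898 to 1198 CPM in irradiated and 1118 to 1803 CPM in untreated libraries. Muscle markers stood at 179 to 568 and 561 to 716 CPM, and fat cell markers at 245 to 388 and 312 to 595 CPM. All of these sums overlapped between the groups, with the lowest of each in irradiated replicate 3 and the highest in untreated replicate 3. Of these markers edgeR called the fibroblast marker Pi16 lower, with a log2 fold change of -0.62 and an adjusted p of 0.0239, and no muscle or fat cell marker. For ducts 9 of 10 markers were negative (median -0.14) and 0 were called. Their sums, 1723 to 1992 CPM in irradiated and 2016 to 2362 CPM in untreated libraries, did not overlap. Most of that sum was Klk1, whose groups overlapped, at 1429 to 1639 CPM in irradiated and 1597 to 1946 CPM in untreated libraries. In TPM the duct sums overlapped, at 2731 to 2989 in irradiated and 2606 to 2941 in untreated libraries.

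Markers of T and natural killer cells went the other way, with 9 of 10 tested markers positive (median 1.76). Their sums were 33.4 to 48.5 CPM in irradiated and 2.19 to 16.2 CPM in untreated libraries. Of them edgeR called Cd5 and Cd8b1 higher, at adjusted p values of 0.00787 and 0.0177. The negative one was Nkg7, with a log2 fold change of -0.66 (SE 0.66). Gzma, not tested, had 1, 0 and 0 counts in irradiated and 3, 3 and 3 counts in untreated libraries. Klrb1c, also not tested, had 5, 5 and 7 counts in irradiated and 0, 3 and 3 counts in untreated libraries. The 10 acinar markers, from secreted proteins such as Bpifa2 and Amy1, summed to 366650 to 465090 CPM in irradiated and 403800 to 487420 CPM in untreated libraries, so the defining markers of the labelled tissue were present. Of these 10 markers 6 were negative (median -0.17). Bhlha15, Aqp5 and Car6 lay wholly below the untreated libraries, 3 of 10 against 10.6% of all genes tested. Of the 10 markers 1 was called lower, the secreted carbonic anhydrase Car6, with a log2 fold change of -0.79 and an edgeR adjusted p of 0.0329. Endothelial markers were positive for 5 of 8 tested, with sums of 92.2 to 101.1 CPM in irradiated and 76.3 to 86.9 CPM in untreated libraries, which did not overlap. B and plasma cell markers were positive for 7 of 9 tested, with sums of 58.0 to 62.2 CPM in irradiated and 9.62 to 58.7 CPM in untreated libraries. Of them edgeR called Bank1 higher, at an adjusted p of 0.0150. The negative ones were Jchain and Igha, with log2 fold changes of -1.38 (SE 1.24) and -1.76 (SE 1.26). Macrophage and dendritic cell markers were negative for 7 of 10, and basal and myoepithelial markers for 7 of 9. Red blood cell markers were negative for 3 of 4 tested, and these lists had 0 calls. No listed marker was at 0 counts in all libraries. The part of cell composition in the glutathione results was not tested.

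Per unit of transcript length the system was dominated by a few genes. Gpx1, Gpx4 and Mgst1 had the highest mean levels over the 6 libraries, at 98.3, 56.6 and 47.8 TPM, and together made up 48.5% of the summed TPM of the 44 genes. The next were Gstm1 at 42.5 TPM, Gstm2 at 26.1 TPM and Gpx3 at 22.7 TPM. The enzymes that make glutathione stood far lower, with Gclc at 4.35 TPM, Gclm at 3.81 TPM and Gss at 1.93 TPM, and the cystine transporter Slc7a11 was at 0.165 TPM.

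**Figure D2:**
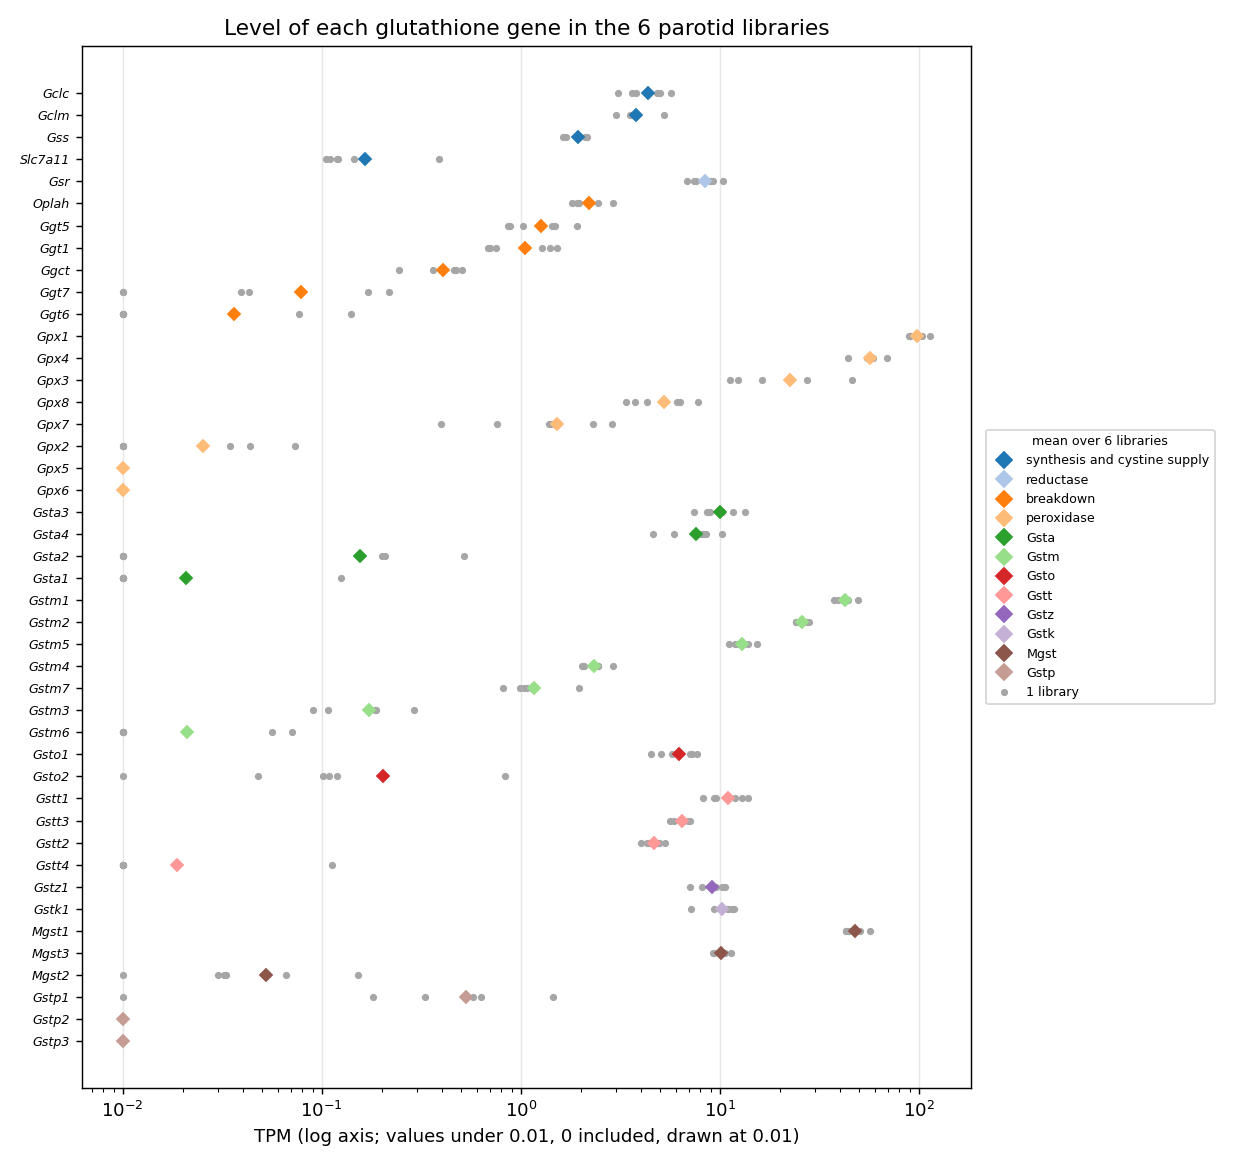
Level of each of the 44 genes in TPM on a log axis, with a grey dot for each of the 6 libraries and a coloured diamond for their mean, grouped by role. Gpx1 at 98.3 TPM and Gpx4 at 56.6 TPM lead, while Gpx5, Gpx6, Gstp2 and Gstp3 had 0 counts in every library.

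Not tested were 15 genes. Gpx5, Gpx6, Gstp2 and Gstp3 had 0 counts in every library. A count of 0 allows up to 3 counts, which is a level of 0.200 to 0.361 CPM in the irradiated and 0.200 to 0.262 CPM in the untreated libraries, by counting error alone. The other 11 genes, Ggt6, Ggt7, Gpx2, Gsta1, Gsta2, Gstm3, Gstm6, Gsto2, Gstp1, Gstt4 and Mgst2, had at most 19 counts in any library.

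Among the genes of synthesis, Gclc stood higher and Gss lower in every irradiated library, and neither passed. Gclc (ENSMUSG00000032350; chr9:77754535-77794485, build mm10) was at 10.2, 9.26 and 13.2 CPM in irradiated and 9.22, 7.96 and 8.54 CPM in untreated libraries. The lowest irradiated value and the highest untreated value were almost the same, so the groups were only just apart. The log2 fold change was 0.35 (SE 0.17), and the edgeR adjusted p was 0.351.

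Gclm, the modifier subunit, lay on neither side. It was at 12.5, 16.1 and 14.1 CPM in irradiated and 16.2, 12.9 and 13.6 CPM in untreated libraries, with a log2 fold change of -0.01 (SE 0.15), and the groups overlapped fully. The ratio of Gclc to Gclm counts within a library does not depend on how libraries are scaled. It was 0.818, 0.575 and 0.939 in irradiated and 0.569, 0.615 and 0.627 in untreated libraries, which overlapped through irradiated replicate 2.

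Gss (chr2:155563181-155592810) was at 6.33, 6.13 and 5.96 CPM in irradiated and 8.56, 6.82 and 7.40 CPM in untreated libraries. Every irradiated value was below every untreated one, with a log2 fold change of -0.31 (SE 0.19), and the edgeR adjusted p was 0.489. Its exons overlap those of Acss2 and of antisense transcripts on the other strand, and the strand setting of the counting is not given in the sources used here. Slc7a11, a cystine importer that p53 is known to repress, was at 0.932, 2.65 and 1.04 CPM in irradiated and 0.987, 1.05 and 1.20 CPM in untreated libraries. That rests on 12 to 22 counts a library, and the high value is that of irradiated replicate 2. With it the log2 fold change was 0.44 (SE 0.49), and without that library it was -0.14.

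No gene of recycling or breakdown passed the threshold. Gsr, the reductase that regenerates glutathione, was at 14.3, 14.0 and 15.2 CPM in irradiated and 12.8, 14.0 and 12.5 CPM in untreated libraries, with groups that overlapped at a single untreated library and a log2 fold change of 0.15 (SE 0.14). Oplah, which opens oxoproline in the cycle that recovers glutamate, was at 7.12, 8.30 and 6.48 CPM in irradiated and 7.57, 7.87 and 8.54 CPM in untreated libraries. The gamma-glutamyl transferases Ggt1 and Ggt5, which split glutathione outside the cell, had log2 fold changes of 0.02 (SE 0.41) and 0.10 (SE 0.28), and Ggct, a gamma-glutamylcyclotransferase, had 0.00 (SE 0.39). The standard errors of these 3 genes, at 1.13 to 5.53 CPM, were wide, so a difference was neither shown nor excluded. Exons of Oplah overlap those of Exosc4 and Smpd5 on the other strand. Of the 9 tested genes of synthesis, recycling and breakdown, 6 had a positive log2 fold change and 3 a negative one, with a median of 0.02. Without irradiated replicate 2 the split was 2 positive and 7 negative, with a median of -0.09.

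**Figure D3:**
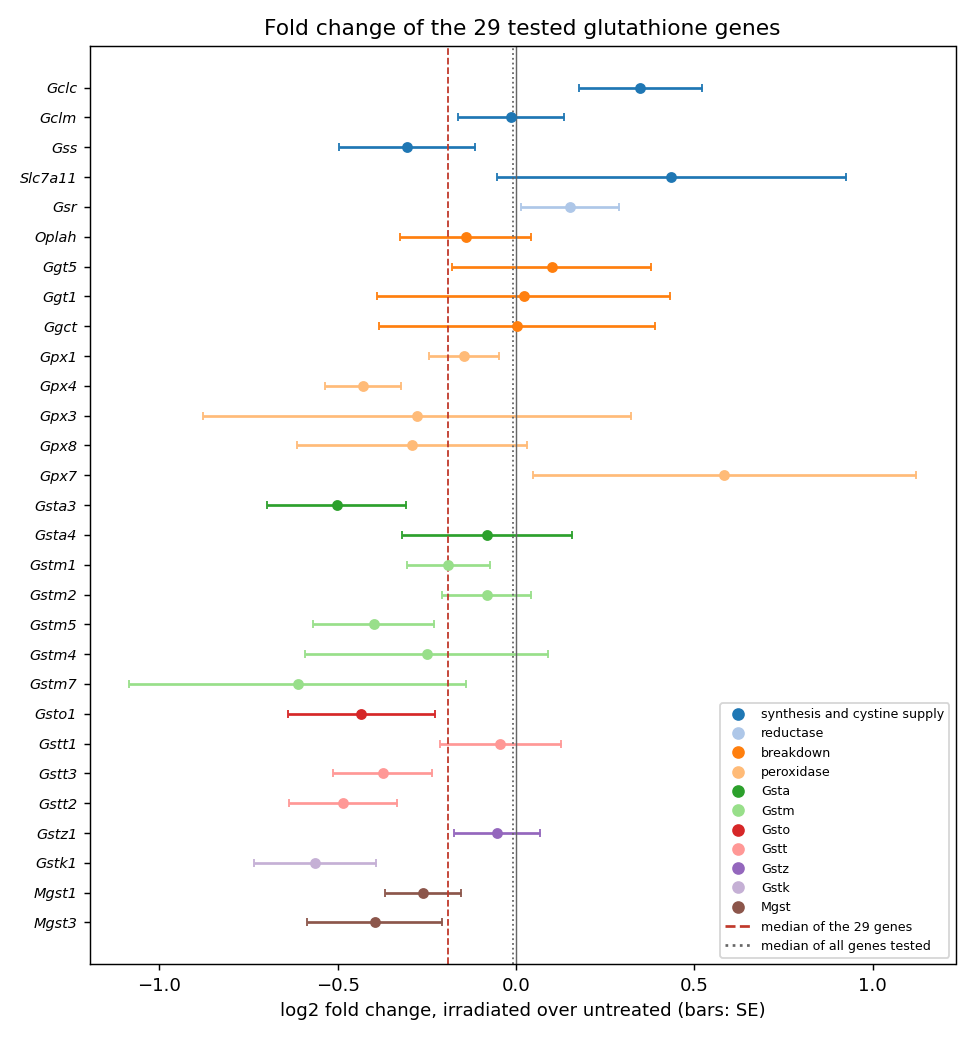
Log2 fold change of each of the 29 tested genes, irradiated over untreated, with its standard error, coloured by role. The dashed line marks the median of the 29 genes at -0.19 and the dotted line the median of all genes tested at -0.01, and all 15 transferases lie left of 0.

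Peroxidases of this family split into enzymes with selenocysteine and enzymes with cysteine at the active site. Selenocysteine is read from a TGA codon that elsewhere ends translation. The coding sequences show this codon, in capitals, with 15 bases on each side, and they are printed for the 5 peroxidases that could be tested. They were read from the GENCODE M21 transcripts of build GRCm38 (mm10), 5′ to 3′ on the coding strand.
Gpx1: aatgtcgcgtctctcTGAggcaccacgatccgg
Gpx4: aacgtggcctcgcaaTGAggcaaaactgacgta
Gpx3: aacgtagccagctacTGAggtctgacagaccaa
Gpx7: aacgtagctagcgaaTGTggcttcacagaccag
Gpx8: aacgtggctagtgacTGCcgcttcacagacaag

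The codons lie at chr9:108339451-108339453 for Gpx1, chr10:80054737-80054739 for Gpx4, chr11:54907256-54907258 for Gpx3, chr4:108403430-108403432 for Gpx7 and chr13:113045661-113045663 for Gpx8, the last pair on the minus strand. The annotation marks the codon as selenocysteine in Gpx1, Gpx3 and Gpx4, the 3 most abundant peroxidases, and in Gpx2, which had at most 2 counts in any library. Gpx7 and Gpx8, which carry a cysteine codon there and are enzymes of the endoplasmic reticulum, stood at 1.52 and 5.26 TPM.

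Gpx4, which reduces peroxides of membrane lipids and holds back ferroptosis, came nearest to the threshold. Gpx4 (ENSMUSG00000075706; chr10:80047166-80056439) was at 53.7, 49.7 and 46.7 CPM in irradiated and 63.9, 66.7 and 71.6 CPM in untreated libraries. All 3 irradiated values lay below all 3 untreated ones, by more than the spread within either group. The means were 50.04 ± 3.53 CPM in irradiated and 67.4 ± 3.87 CPM in untreated glands (SD, n = 3 each). The log2 fold change was -0.43 (SE 0.11), and the edgeR adjusted p was 0.0549, which did not pass. With offsets for length and GC content the log2 fold change was -0.20 and the edgeR adjusted p 0.473, and over all 17 other settings the adjusted p ran from 0.0421 to 0.610.

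The counts of Gpx4 depend on how a pseudogene is treated. Of the 50-base words of Gpx4 transcripts, 34.7% also occur in the processed pseudogene Gpx4-ps2, and reads that aligned to more than 1 place were set aside in the deposited tables. Gpx4-ps2 itself had 146, 54 and 78 counts in irradiated and 137, 137 and 165 counts in untreated libraries, or 0.152 ± 0.0260 of the Gpx4 count in irradiated and 0.170 ± 0.0140 in untreated libraries (SD, n = 3 each). With its counts added to those of Gpx4, an alternative chosen after seeing the data, the log2 fold change was -0.45 and the edgeR adjusted p 0.0456, and the other settings gave from 0.0421 to 0.610.

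Gpx1, the most abundant member and the general cytosolic peroxidase, was at 81.0, 80.6 and 79.4 CPM in irradiated and 87.7, 89.4 and 89.7 CPM in untreated libraries. The replicates were close to each other, and the groups did not overlap. The difference was small, -0.15 in log2 fold change (SE 0.10), and the edgeR adjusted p was 0.520. It was 0.05 with the length and GC offsets and 0.01 with scaling by library totals alone. Between these enzymes the ratio of Gpx4 to Gpx1 counts, which does not depend on library scaling, was 0.663, 0.616 and 0.588 in irradiated and 0.729, 0.747 and 0.798 in untreated libraries. The groups did not overlap in this ratio, which was chosen after its values were seen and was not tested.

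Gpx3, the secreted peroxidase of plasma, had the widest spread among the abundant genes and was described after its values were seen. It was at 11.5, 40.9 and 13.7 CPM in irradiated and 19.996, 27.9 and 29.8 CPM in untreated libraries. Irradiated replicate 2 was above every other library, and the other irradiated libraries were below every untreated one. The log2 fold change was -0.28 (SE 0.60), and the edgeR adjusted p was 0.886. Without irradiated replicate 1 the log2 fold change was 0.05.

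Without irradiated replicate 2 the log2 fold change of Gpx3 was -1.05, and the edgeR adjusted p was 0.00794, and its other alternatives gave up to 0.991. The level in irradiated replicate 2 was 3.25 times the mean of the other irradiated libraries, a ratio that 12 of 5814 genes of at least 10 CPM reached, or 0.206%. In the same library summed muscle markers were 568 CPM and summed fat cell markers 388 CPM, the highest of the irradiated libraries. The other irradiated libraries had 179 to 485 CPM and 245 to 337 CPM. Untreated replicate 3 had more of both, 716 and 595 CPM, with Gpx3 at 29.8 CPM. Of the acinar markers, Prol1 was at 442 CPM in irradiated replicate 2, against 32.8 to 40.9 CPM in the other libraries. The summed acinar markers went the other way, at 366650 CPM in irradiated replicate 2 against 403800 to 487420 CPM in the other libraries. The part of these cells in the Gpx3 value was not tested. Gsto2, with 8 counts there against 2 in each of the other irradiated libraries and 0, 2 and 1 in the untreated ones, was too scarce to be tested.

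Gpx7 and Gpx8 were scarce. Gpx7 had the largest positive log2 fold change of the 29 genes, 0.58 (SE 0.54), from 25, 15 and 7 counts in irradiated and 15, 4 and 16 counts in untreated libraries. The groups overlapped, and the edgeR adjusted p was 0.661. Gpx8 had a log2 fold change of -0.29 (SE 0.32). The 19 tested genes of selenoprotein synthesis and other selenoproteins had 0 calls in either direction and a median of -0.10, and the 2 most abundant, the selenium carrier Selenop and the endoplasmic reticulum protein Selenos, had log2 fold changes of -0.22 (SE 0.12) and -0.22 (SE 0.11).

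**Figure D4:**
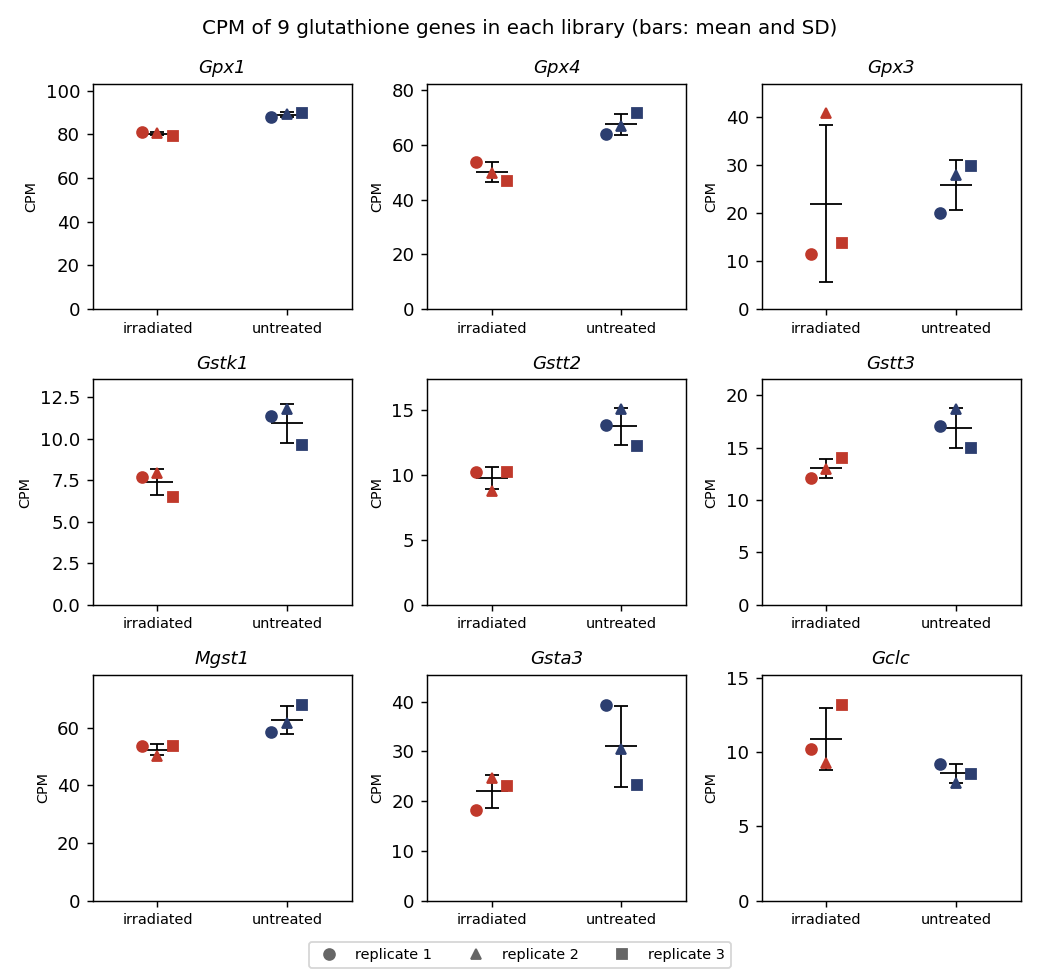
CPM of 9 genes in each of the 3 irradiated and 3 untreated libraries, with the replicate number shown by the marker and black bars for the mean and SD, on axes that start at 0. Gpx4 stands at 46.7 to 53.7 CPM in irradiated and 63.9 to 71.6 CPM in untreated libraries, while Gpx3 is split by irradiated replicate 2 at 40.9 CPM.

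Of the transferases, all 15 that could be tested had a negative log2 fold change, with a median of -0.37, and none passed the threshold. All 15 stayed below the median of all genes when libraries were scaled by totals alone, where Gsta4, Gstm2, Gstt1 and Gstz1 turned positive and the median of all genes stood at 0.14. With the length and GC offsets 12 of 15 were negative, with a median of -0.24. Of the 15, 12 were negative without untreated replicate 3, 13 without irradiated replicate 3, and 14 without either irradiated replicate 2 or untreated replicate 1.

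The kappa transferase Gstk1, an enzyme of mitochondria and peroxisomes, had the largest difference among the transferases above 2 CPM. Gstk1 (ENSMUSG00000029864; chr6:42245935-42250447) was at 7.72, 7.94 and 6.48 CPM in irradiated and 11.4, 11.8 and 9.61 CPM in untreated libraries. The groups did not overlap. The means were 7.38 ± 0.790 CPM in irradiated and 10.9 ± 1.16 CPM in untreated glands (SD, n = 3 each), with a log2 fold change of -0.56 (SE 0.17) and an edgeR adjusted p of 0.112. No 50-base word of its transcripts was found in any other annotated gene. With the length and GC offsets the log2 fold change was -0.45.

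The theta transferases, which act on small halogenated compounds, lie side by side on chromosome 10, between 75774115 and 75837424. Gstt2 (chr10:75831114-75837424) was at 10.3, 8.78 and 10.3 CPM in irradiated and 13.9, 15.1 and 12.3 CPM in untreated libraries. Gstt3 (chr10:75774115-75781414) was at 12.1, 13.0 and 14.0 CPM in irradiated and 17.03, 18.7 and 14.9 CPM in untreated libraries. For both genes the irradiated libraries lay below the untreated ones, with log2 fold changes of -0.48 (SE 0.15) and -0.37 (SE 0.14) and edgeR adjusted p values of 0.125 and 0.196.

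Gstt1 and Gstt4 lie between Gstt3 and Gstt2. Gstt1 was at 10.3, 10.3 and 8.81 CPM in irradiated and 8.48, 9.97 and 11.7 CPM in untreated libraries, with full overlap and a log2 fold change of -0.04 (SE 0.17). The ratio of Gstt2 to Gstt1 counts within a library was 1, 0.849 and 1.17 in irradiated and 1.64, 1.52 and 1.05 in untreated libraries, which overlapped through untreated replicate 3. The difference between the genes of this cluster was not tested. Of the exon bases of Gstt3, 13.6% also belong to Gm20441 on the same strand, so reads there cannot be given to either gene alone. The neighbours Ggt1 and Ggt5, from 75561604 to 75617200 on the same chromosome, had overlapping groups as described above. Gstt4 had 1 count in untreated replicate 3 and 0 in the other libraries.

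The mu transferases form a second cluster, on chromosome 3 between 107895821 and 108044894. Gstm1, the most abundant of them, was at 31.1, 35.8 and 38.5 CPM in irradiated and 44.0, 39.6 and 36.5 CPM in untreated libraries, and Gstm2 was at 25.8, 21.9 and 28.8 CPM in irradiated and 27.4, 29.7 and 24.3 CPM in untreated libraries. The groups overlapped for both, with log2 fold changes of -0.19 (SE 0.12) and -0.08 (SE 0.12). Gstm5 (chr3:107895821-107898686) was at 8.59, 6.98 and 10.4 CPM in irradiated and 10.6, 12.2 and 11.7 CPM in untreated libraries, without overlap but with the groups close. Its log2 fold change was -0.40 (SE 0.17), and the edgeR adjusted p was 0.268, and with the length and GC offsets the log2 fold change was -0.25. Of its exon bases 13.9% overlap the antisense gene 4933431E20Rik, from which its reads cannot be told apart without the strand setting. Gstm7 had the lowest log2 fold change of all 29 genes, -0.61 (SE 0.47), from only 11, 7 and 13 counts in irradiated and 13, 13 and 28 counts in untreated libraries, which overlapped.

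Gstm4 was at 2.33, 2.04 and 2.16 CPM in irradiated and 2.39, 3.41 and 2.07 CPM in untreated libraries. Paralogs in this cluster are alike, with 85.3% of aligned coding bases shared by Gstm2 and Gstm7, but few stretches as long as 50 bases are the same. Of the 50-base words of Gstm2, 5.66% occur in another gene, of those of Gstm7 0.532%, and of those of Gstm4 0. For Gstm1 it is 18.9%, most of them in the pseudogene Gstm2-ps1, and reads with more than 1 place were set aside. That pseudogene had 22, 17 and 11 counts in irradiated and 12, 16 and 22 counts in untreated libraries.

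Among the alpha transferases, which handle products of lipid peroxidation, Gsta3 had the higher level. Gsta3 (ENSMUSG00000025934; chr1:21240589-21265661) was at 18.2, 24.7 and 23.1 CPM in irradiated and 39.4, 30.4 and 23.2 CPM in untreated libraries. The untreated libraries were uneven, and the lowest of them lay within the irradiated range. The log2 fold change was -0.50 (SE 0.19), and the edgeR adjusted p was 0.266. Without untreated replicate 3 it was -0.68 with an edgeR adjusted p of 0.0448, and with no filter on low counts the adjusted p was 0.00873, while the other settings gave up to 0.528. The length and GC offsets left it at -0.54.

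Gsta4, which detoxifies hydroxyalkenals from oxidized lipids, was at 5.73, 6.37 and 4.58 CPM in irradiated and 6.99, 4.02 and 6.47 CPM in untreated libraries, with a log2 fold change of -0.08 (SE 0.24). Gsta1 and Gsta2 were nearly absent, with at most 5 counts in a library, and their coding sequences share 97.5% of aligned bases. The uniquely placed reads of that pair may therefore be a lower limit, which was not tested.

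The membrane transferases followed the same side. Mgst1 (ENSMUSG00000008540; chr6:138140316-138156755), an enzyme of the endoplasmic reticulum and outer mitochondrial membrane, was at 53.7, 50.2 and 53.6 CPM in irradiated and 58.7, 61.7 and 68.1 CPM in untreated libraries. Mgst3 was at 5.73, 5.41 and 6.22 CPM in irradiated and 7.49, 7.96 and 7.47 CPM in untreated libraries. Neither gene overlapped between the groups. The log2 fold changes were -0.26 (SE 0.11) for Mgst1 and -0.40 (SE 0.19) for Mgst3, with edgeR adjusted p values of 0.249 and 0.333. With the length and GC offsets they were -0.15 and -0.24.

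Gsto1 is an omega transferase that reduces arsenic compounds. It was at 5.13, 7.22 and 7.17 CPM in irradiated and 10.5, 6.99 and 8.61 CPM in untreated libraries, with a log2 fold change of -0.43 (SE 0.21). The groups overlapped through untreated replicate 2. Gstz1, the zeta enzyme of tyrosine breakdown, was at 27.3, 25.6 and 28.9 CPM in irradiated and 24.3, 28.3 and 32.2 CPM in untreated libraries, with a log2 fold change of -0.05 (SE 0.12). Its exons overlap those of Pomt2 on the other strand.

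The pi transferases had few counts or none. Gstp1 had 19, 0 and 2 counts in irradiated and 8, 4 and 8 counts in untreated libraries, and Gstp2 and Gstp3 had 0 in each. Gstp1 and Gstp2 lie next to each other on chromosome 19, and their coding sequences of 633 bases differ at 12 positions. The first 60 bases of both are shown with the 6 positions that differ there in capitals, and the other 6 differences lie in the rest of the coding sequence. They come from the GENCODE M21 transcripts of build GRCm38, from genes at chr19:4035407-4037985 and chr19:4040285-4046023, both on the minus strand.
Gstp1: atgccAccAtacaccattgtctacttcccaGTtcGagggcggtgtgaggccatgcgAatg
Gstp2: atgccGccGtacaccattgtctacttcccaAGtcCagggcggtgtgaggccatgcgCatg

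Of the 50-base words of Gstp1 transcripts 33.7% also occur in Gstp2, and of those of Gstp2 54.3% occur in another gene. Reads that align equally well to both genes would fall in the row for reads without a unique place. That row held 13.3% to 18.4% of the reads of a library, and no read in it was traced to a gene. The counts of Gstp1 and Gstp2 may be lower limits for that reason, which was not tested, while Gstp3 shares no 50-base word with another gene.

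Nrf2 acts through the antioxidant response element, and its core, TGACNNNGC, was looked for on both strands of the promoter sequences of RefSeq (build GRCm38.p6), which run from 250 bases before to 50 bases after the start of a gene. The sequences matched 38 of the 44 genes by symbol, all but Gclc, Gsr, Ggt5, Gsta4, Gstt2 and Oplah. Of these 38, 7 held the core in at least 1 promoter, or 18.4%. Of all 32851 promoters of that length 12.4% did, and by gene symbol 14.0% of 27025. Among genes tested, 7 of 23 glutathione genes held it, or 30.4%, against 17.2% of 9559. Overlapping matches were counted, and a match of these letters is a description, not a site.

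The 7 genes were Gclm, Ggct, Ggt1, Gsta3, Gstm5, Gstm7 and Mgst1. The windows of 4 of them follow, from the gene of synthesis and from the 3 transferases that were lower at an unadjusted p under 0.05, with the match in capitals and 20 bases on each side, in the direction of the gene. For Gclm and Mgst1 the core is on the other strand, so the capitals show its reverse complement.
Gclm: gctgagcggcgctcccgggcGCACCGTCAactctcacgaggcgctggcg
Gsta3: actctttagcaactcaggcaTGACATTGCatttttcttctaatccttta
Gstm5: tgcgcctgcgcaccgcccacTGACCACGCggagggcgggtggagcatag
Mgst1: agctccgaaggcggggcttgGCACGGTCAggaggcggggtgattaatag

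They lie at chr3:122245403-122245451 (Gclm), chr1:21240444-21240492 (Gsta3), chr3:107895792-107895840 (Gstm5) and chr6:138140451-138140499 (Mgst1), all on the plus strand. The genes with a match did not share a value. Gclm had a log2 fold change of -0.01, Ggct of 0.00 and Ggt1 of 0.02. Gsta3 had -0.50, Gstm5 -0.40, Gstm7 -0.61 and Mgst1 -0.26.

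Other genes of the pathway gave 1 call. Of 23 tested targets of Nrf2 outside the glutathione genes, 1 rose, 0 fell and 22 did not pass, with a median log2 fold change of -0.03. The one that rose was Ephx1, microsomal epoxide hydrolase, which is also a known p53 target. It was at 89.3, 84.6 and 100.9 CPM in irradiated and 45.1, 52.6 and 50.2 CPM in untreated libraries, far apart, with a log2 fold change of 0.89 (SE 0.11) and an edgeR adjusted p of 0.000152.

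Regulators of Nrf2, with Nfe2l2 itself on the list, had 0 calls among 9 tested and a median of -0.16. The 2 most abundant, the Keap1-binding adaptor Sqstm1 and the related factor Nfe2l1, had log2 fold changes of -0.28 (SE 0.12) and -0.16 (SE 0.10). Nfe2l2 had 0.08 (SE 0.11) and Keap1 -0.39 (SE 0.14), with edgeR adjusted p values of 0.772 and 0.167. Of the 9, 4 lay wholly below the untreated libraries and 1 wholly above, against 10.6% of all genes tested each way. Genes of glutathione turnover and amino acid transport had 0 calls among 19 tested and a median of -0.17. Slc3a2, the partner chain of Slc7a11 in the cystine importer, was at 121, 136 and 162 CPM in irradiated and 168, 203 and 176 CPM in untreated libraries. Its groups did not overlap. The log2 fold change was -0.38 (SE 0.13), and the edgeR adjusted p was 0.152. Slc25a39, the mitochondrial glutathione carrier, had a log2 fold change of -0.17 (SE 0.11).

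Other enzymes that use glutathione had 0 calls among 19 tested and a median of -0.10, with log2 fold changes of -0.10 (SE 0.12) for both Eef1g, a translation factor with a transferase-like domain, and Pdia3, a protein disulfide isomerase. Partners of Gpx4 in ferroptosis had 0 calls among 13 tested and a median of 0.02. Fth1 and Ftl1, the heavy and light chains of the iron store ferritin, which are also on the list of Nrf2 targets, had log2 fold changes of -0.13 (SE 0.12) and -0.44 (SE 0.13), and the edgeR adjusted p was 0.0982 for Ftl1.

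**Figure D5:**
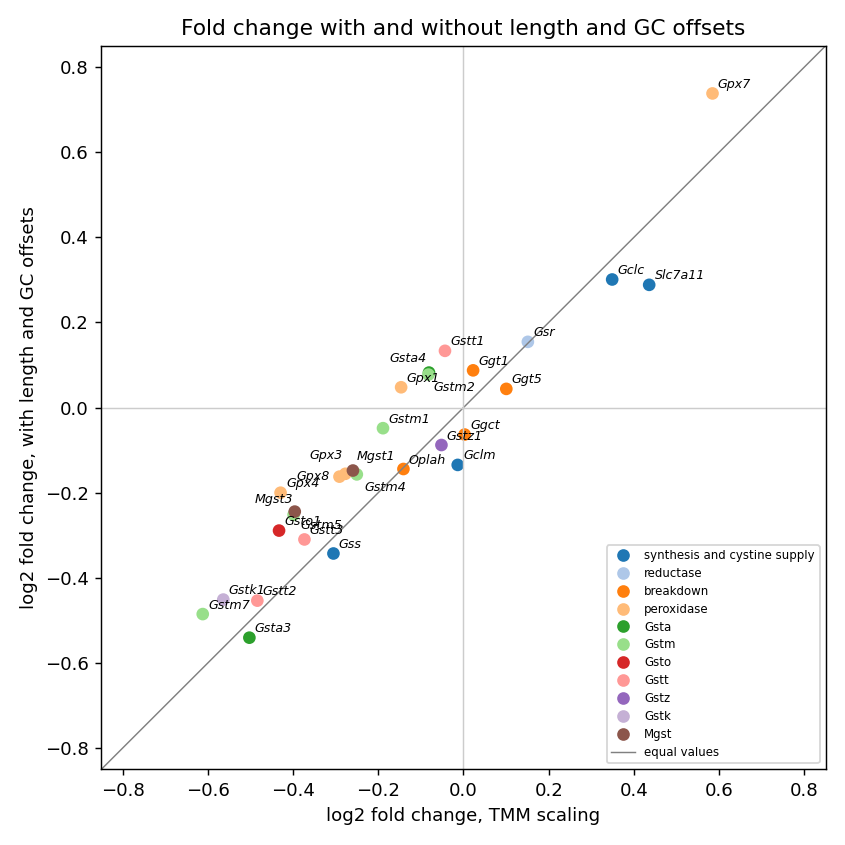
Log2 fold change of the 29 tested genes with TMM scaling on the horizontal axis and with offsets for transcript length and GC content on the vertical axis, coloured by role, with the line of equal values. With the offsets Gpx4 stands at -0.20, against -0.43 without them, Gpx1 at 0.05, against -0.15, and Gsta3 at -0.54, against -0.50.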

How the data were processed

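Total RNA libraries (strand-specific kit, per the labels' protocols) were deposited by the authors as raw counts of reads for each Ensembl gene of the mouse. The submitters' processing notes name bcl2fastq, HISAT2, HTSeq and the build mm10. Versions, annotation and strand setting are not given in the sources used here. Rows naming no gene (32.4% to 40.7% of reads) were left out. Symbols, coordinates and lengths came from GENCODE M21 (GRCm38), which matched 52489 of 52636 genes.

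Counts were tested with edgeR 4.0.16 in R 4.3.3 (quasi-likelihood, robust, TMM, filterByExpr with a minimum count of 10) on all 6 libraries, with Benjamini-Hochberg adjustment over 12885 genes and a threshold of 0.05. CPM uses TMM-scaled library sizes, TPM uses merged exon length, and SE is the absolute log2 fold change over the square root of F. DESeq2 1.42.0, limma 3.58.1, other scalings and filters, length and GC offsets (splines), a replicate block and leaving out each library were alternatives. The edgeR procedure was tested on simulated data. Depth, 7108359 to 15036193 counts a library, limits the precision of genes with few counts. Libraries of a group differed beyond sampling noise (chi-square per degree of freedom at least 13.8). Genes and lists were chosen with earlier results of these data known. Values per library are given for glutathione genes without overlap, the 2 most abundant of each class and the largest and smallest fold change. They are also given for Gclc, Gclm, Gss, Gsr, Slc7a11, Gpx1 and Gpx4, and, from related lists, for Ephx1 and Slc3a2. Fold changes are given for called or the 2 most abundant genes of each related list.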

Additional observations from a re-analysis of the deposited data

How the results depend on the processing

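Of 29 tested genes, 17 kept their sign in each of 17 alternative settings and 12 did not, and 5 of 492 values passed the threshold, for Gpx4 (no filter on low counts, and counts summed with the pseudogene), Gsta3 (no filter, and without untreated replicate 3) and Gpx3 (without irradiated replicate 2). The count of genes called lower, 0, was 2 with no filter and 1 with the pseudogene counts added. The median of -0.19 was -0.040 with scaling by library totals, -0.14 with length and GC offsets, -0.13 with these and the replicate block, and -0.21 to -0.11 with 1 library left out. Scaling by totals moved the median of all genes to 0.14, and the glutathione genes stayed 0.18 below it. The count of genes without overlap was then 2 higher and 5 lower; higher genes were 0 with no filter and with length and GC offsets, with or without the block, 2 with at least 1 CPM in 3 libraries, and 1 to 2 with 1 library left out, where genes called lower were 0 to 1. The related lists, with 1 gene called higher and 0 lower and a median of -0.09, had 2 called lower with no filter and 0 to 1 with 1 library left out, and medians of 0.066 with library totals and -0.044 with length and GC offsets. The replicate numbers paired no libraries, with correlations of deviations of 0.0199, -0.111 and -0.107 between same-numbered libraries, and irradiated replicates 2 and 3 did not correlate best with their own number; with the replicate block 0 of the 29 genes passed and 6, in place of 9, were lower at an unadjusted p under 0.05. Over all genes the calls, 84 higher and 45 lower, were 20 and 5 by limma-voom, 21 and 5 without robust shrinkage, 39 and 14 with the replicate block, 121 and 70 by DESeq2, 260 and 22 with library totals and 279 and 239 with no filter. Low counts, 12 to 22 a library for Slc7a11 and 4 to 25 for Gpx7, leave their standard errors wide, at 0.49 and 0.54.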
